A study of Mus musculus with 12 samples.

Results

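Mesodermal cells of the mouse embryo that carried FLK1 but not the FOXF1 reporter were compared with cells that carried the reporter but not FLK1. These FLK1 single-positive and FOXF1 single-positive populations were each measured on 2 gene-level arrays, chosen by their titles, which makes 4 of the 6 gene-level arrays and 4 of the 12 deposited sample records. All came from E7.5 embryos with a foxf1::venus knock-in on a C57BL/6 background, in which the fluorescent protein VENUS is read as a reporter of Foxf1. After dissociation and antibody staining, 50 cells per sample were sorted into lysis buffer of a kit for minute RNA amounts, in 2 sorts per population, which the design text calls biological replicates. The remaining 2 arrays hold FLK1 and FOXF1 double-positive cells and entered the fit only to estimate the spread. No population without the knock-in was measured, and nothing used here says whether the allele leaves Foxf1 itself intact. The embryos behind each sort are not named either, so the p-values measure the spread between sorts, which may be partly technical.

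FLK1 is the receptor for vascular endothelial growth factor encoded by Kdr, and it marks mesoderm with the capacity to form endothelium and blood in the yolk sac and embryo. Foxf1 encodes a forkhead transcription factor of extraembryonic and lateral plate mesoderm that is needed for the allantois and the vessels of the yolk sac. At this stage mesoderm that has left the primitive streak is being divided among yolk sac, allantois, heart and lateral plate. The markers may therefore separate cells on partly different paths, which was not tested here. The rows carry Ensembl IDs, and the deposited files do not pair them with names. The pairing of 3 IDs with Acta2, Hoxd9 and Cited4 was supplied with the description of the comparison, and the reference table holds the 3 symbols but no Ensembl IDs against which to check it. The sorting genes Kdr and Foxf1 and the markers of endothelium, blood, smooth muscle, endoderm and other cell types were therefore not looked up, and the labels of the populations were not checked against expression.

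The named genes have unlike promoters, and the 250 bases before the transcription start of each are shown. The sequences are those of RefSeq on build GRCm38.p6, and 3 of the 3 symbols matched. Capitals mark matches, on both strands, to 4 motifs. The first is the CArG-like element, the kind of site read by serum response factor in contractile genes, with 1 departure allowed from the A and T of its centre. The second is the core bound by forkhead factors, TAAACA. The third is GGGCGG, the GC box read by Sp factors. The last is TATAAA, the TATA box found shortly before many transcription starts.
Acta2, chr19:34255374-34255623, minus strand: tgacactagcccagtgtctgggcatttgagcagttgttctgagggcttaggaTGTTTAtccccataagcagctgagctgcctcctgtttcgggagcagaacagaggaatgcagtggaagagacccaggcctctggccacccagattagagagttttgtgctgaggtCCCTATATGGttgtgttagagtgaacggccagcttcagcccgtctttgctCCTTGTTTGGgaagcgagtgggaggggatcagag
Hoxd9, chr2:74697513-74697762, plus strand: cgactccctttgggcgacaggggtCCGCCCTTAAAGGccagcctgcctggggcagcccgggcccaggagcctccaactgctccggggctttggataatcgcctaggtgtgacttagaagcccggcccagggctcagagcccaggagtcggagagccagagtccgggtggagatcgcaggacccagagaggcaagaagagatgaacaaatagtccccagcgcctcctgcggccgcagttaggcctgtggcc
Cited4, chr4:120666313-120666562, plus strand: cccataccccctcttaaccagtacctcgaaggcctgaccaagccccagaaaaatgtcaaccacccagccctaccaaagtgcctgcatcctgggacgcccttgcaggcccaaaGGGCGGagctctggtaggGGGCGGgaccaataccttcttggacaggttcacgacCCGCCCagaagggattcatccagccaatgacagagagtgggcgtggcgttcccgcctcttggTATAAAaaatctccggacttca

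The Acta2 window held 2 CArG-like elements, CCCTATATGG from 84 to 75 bases before the start and CCTTGTTTGG from 34 to 25 bases before it. It also held 1 forkhead core, TGTTTA on the strand shown, from 198 to 193 bases before the start. The Hoxd9 window held 1 CArG-like element, CCCTTAAAGG, which overlaps a GC box on the other strand. The Cited4 window held 3 GC boxes and, from 22 to 17 bases before the start, 1 TATA box, but neither of the other motifs. Among 32851 RefSeq promoters of the same length, a CArG-like element was present in 8.59%, the forkhead core in 12.0%, the GC box in 32.7% and the TATA box in 12.4%. These matches describe letters in a window, and factor binding was not measured. A link between the motifs and the direction of change was not tested.

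Across the 22400 rows, 122 differed between the single-positive populations at an adjusted p under 0.05, a background of 0.545%. Of these, 42 rows (0.188%) were higher and 80 rows (0.357%) lower in FOXF1 single-positive cells. These counts depended on each array: they were 9 and 35 without FLK1 single-positive sort 1, 6 and 20 without its sort 2, 9 and 21 without FOXF1 single-positive sort 1, 9 and 23 without its sort 2, and 23 and 46 without either double-positive array. Differences are given throughout as FOXF1 single-positive minus FLK1 single-positive, on the log2 scale of the deposited signals. The interquartile range was 1.91 to 2.90 log2 units among the higher rows and -2.97 to -1.90 among the lower rows. Over all rows it was -0.19 to 0.19. The rows that passed were chosen by a test of this same difference, so their larger values follow from that choice. The nearest arrays of the populations were at least 1.27 log2 units apart in the 42 higher and 1.33 in the 80 lower rows. This gap also follows in part from passing the threshold on the same arrays. The share of all rows with a gap of that size was not counted. Arrays of the populations did not overlap in 7871 of all 22400 rows (35.1%), so with 2 arrays a population the lack of overlap is common. The deposited values are normalized between arrays, and a general difference in RNA amount is therefore not measured.

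Large differences were few. In the higher direction 27 of the 42 rows differed by at least 2 log2 units, 9 by at least 3 and 2 by at least 4, the latter being Acta2 and Hoxd9. In the lower direction 55 of the 80 rows differed by at least 2 log2 units, 19 by at least 3 and 6 by at least 4. Size alone did not decide a call: of 130 rows that differed by at least 2 log2 units either way, 82 passed (63.1%), as did 28 of 32 at 3 log2 units. There were 18 higher and 30 lower rows that differed by at least 2 log2 units without passing. For each row the larger SD of the 2 single-positive populations was taken. Its median was 0.73 log2 units in the higher and 0.86 in the lower direction. In the rows of that size that passed it was 0.49 and 0.36. The double-positive spread, which also enters the fit, is not part of these SDs. For example, ENSMUSG00000031737 differed by -3.51 without passing (adjusted p = 0.115 by limma). Its single-positive SDs were 0.03 and 0.05, but its double-positive SD was 1.76.

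**Figure D1:**
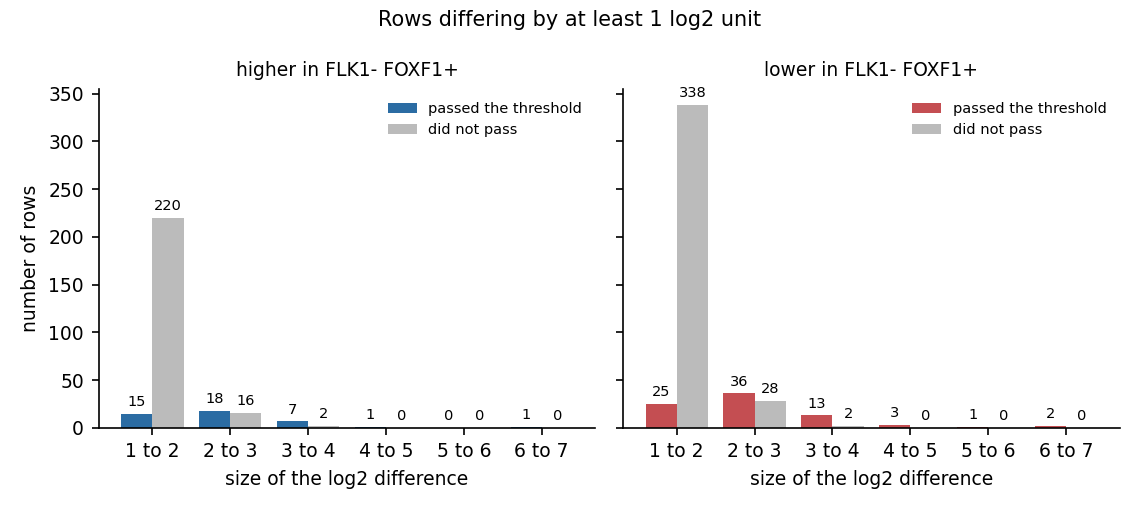
Number of gene rows (vertical axis) by the size of the log2 difference between FOXF1 single-positive (FLK1- FOXF1+) and FLK1 single-positive (FLK1+ FOXF1-) cells, for rows higher (left) and lower (right) in FOXF1 single-positive cells, with rows under 1 log2 unit left out. Coloured bars are rows with an adjusted p under 0.05 and grey bars the rest. Between 1 and 2 log2 units 15 of 235 higher and 25 of 363 lower rows passed, while all 8 rows beyond 4 log2 units did.

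Acta2 encodes smooth muscle alpha-actin, the actin of contractile smooth muscle that is also made by early mesoderm and by the embryonic heart. It rose more than any other row in FOXF1 single-positive cells. The log2 signal was 11.45 in sort 1 and 11.29 in sort 2 of the FOXF1 single-positive cells, against 4.72 and 5.80 in the FLK1 single-positive cells. The arrays did not overlap, and the nearest values were 5.48 log2 units apart. The means were 11.37 ± 0.11 (SD, n = 2) and 5.26 ± 0.77, 6.11 ± 0.36 log2 units apart (SE, adjusted p = 0.00443 by limma) with a 95% interval of 5.26 to 6.96, or 68.9-fold on the linear scale. The lower sort 1 signal in FLK1 single-positive cells made the difference 6.73 in sort 1 and 5.48 in sort 2. The double-positive arrays, at 7.38 and 7.77, lay between the others.

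Hoxd9, a posterior homeobox gene of the HoxD cluster that patterns the hind axis and limb, had the second largest rise. Its log2 signal was 11.06 and 11.27 in FOXF1 single-positive and 6.82 and 6.52 in FLK1 single-positive cells. Both FOXF1 single-positive arrays were thus more than 4 log2 units above both FLK1 single-positive arrays. The means of 11.16 ± 0.15 (SD, n = 2) and 6.67 ± 0.21 differed by 4.49 ± 0.39 log2 units (SE, adjusted p = 0.00718 by limma, 95% interval 3.59 to 5.40), a 22.5-fold difference. The double-positive arrays read 8.84 and 10.05, again between the others but 1.21 log2 units apart from each other. Without sort 2 of either single-positive population the adjusted p of Hoxd9 was 0.0589 or 0.0557.

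Cited4 encodes a transcriptional coregulator of the CITED family, which binds the acetyltransferases CBP and p300. It had the second largest fall. The log2 signal was 11.16 and 11.57 in FLK1 single-positive cells but 4.62 and 6.04 in FOXF1 single-positive cells. The FOXF1 single-positive sorts differed from each other by 1.42 log2 units, yet both lay more than 5 log2 units below the FLK1 single-positive arrays. The means of 5.33 ± 1.00 (SD, n = 2) and 11.36 ± 0.29 differed by -6.03 ± 0.61 (SE, adjusted p = 0.0114 by limma, 95% interval -7.47 to -4.59), or 65.4-fold lower. The double-positive arrays were at 7.29 and 5.63, and the latter fell inside the range of the FOXF1 single-positive arrays. Leaving out either FLK1 single-positive array gave an adjusted p of 0.0694 or 0.0886, and leaving out FOXF1 single-positive sort 1 gave 0.0575.

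Of the rows without a name, ENSMUSG00000025400 and ENSMUSG00000036139 rose most. ENSMUSG00000025400 read 9.06 and 8.59 in FOXF1 single-positive and 5.26 and 4.85 in FLK1 single-positive cells, and thus differed by 3.77 ± 0.27 log2 units (SE, adjusted p = 0.00443). Its difference was nearly the same within each sort, at 3.80 and 3.75. ENSMUSG00000036139 read 10.15 and 10.35 against 6.27 and 6.80, a difference of 3.72 ± 0.41 (adjusted p = 0.0150), with double-positive arrays at 8.16 and 9.44. Its adjusted p lay between 0.0766 and 0.106 when any 1 of the 4 single-positive arrays was left out. In both rows the double-positive arrays lay between the others.

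The largest fall of all was that of ENSMUSG00000041378, whose 2 FOXF1 single-positive arrays, at 3.57 and 3.59, were near the lower end of the scale. The FLK1 single-positive arrays read 9.71 and 9.54, so the difference was -6.05 ± 0.22 (SE, adjusted p = 0.000304), the smallest adjusted p of the comparison. The double-positive arrays, at 10.73 and 10.37, were above both single-positive populations. ENSMUSG00000093467 read 5.35 and 4.26 in FOXF1 single-positive against 9.91 and 10.06 in FLK1 single-positive cells, which differed by -5.18 ± 0.36 (adjusted p = 0.00443). Its double-positive arrays, at 10.01 and 10.31, overlapped the FLK1 single-positive ones, unlike those of Acta2, Hoxd9 and Cited4.

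**Figure D2:**
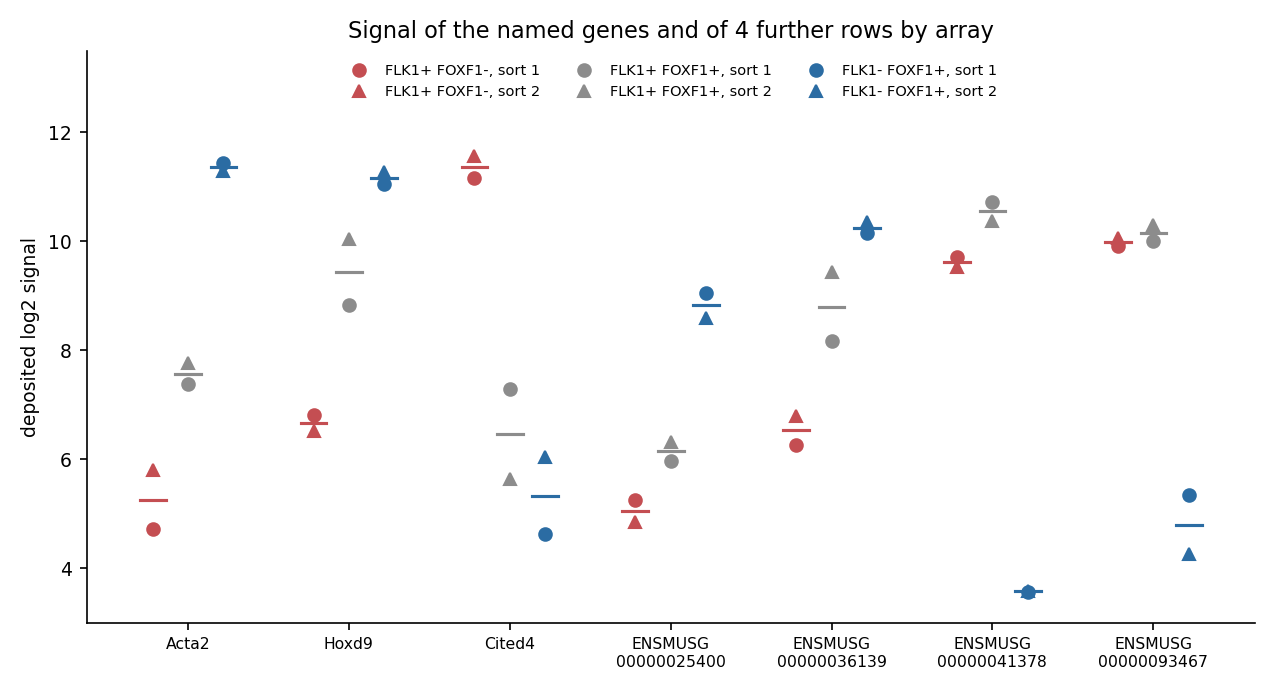
Deposited log2 signal (vertical axis) of Acta2, Hoxd9, Cited4 and 4 rows without a name on each array. Circles are sort 1, triangles sort 2, short lines the mean of 2 arrays, red FLK1 single-positive (FLK1+ FOXF1-), grey double-positive (FLK1+ FOXF1+) and blue FOXF1 single-positive (FLK1- FOXF1+) cells. Red and blue points are apart in all 7 rows, which the choice of the rows fixed, and for Acta2 they lie at 4.72 to 5.80 and 11.29 to 11.45.

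The double-positive arrays of Acta2 and Hoxd9 lay between the others, and the position of these arrays was counted in all rows that passed. Both double-positive arrays lay between those of the single-positive populations in 29 of the 42 higher rows and 36 of the 80 lower rows. They overlapped the FLK1 single-positive arrays in 8 higher and 22 lower rows, and the FOXF1 single-positive arrays in 2 higher and 6 lower rows, Cited4 among the latter. They lay beyond the FLK1 single-positive arrays, as for ENSMUSG00000041378, in 3 higher and 15 lower rows, and beyond the FOXF1 single-positive arrays in 0 and 1. With 2 arrays a population these are counts of positions, without a test. Rows that passed have a wide gap between the single-positive arrays, so the choice of rows partly favours signals that lie between them. The share of each position over all rows was not counted. A mixture of cell types in a sort and an even level in every cell cannot be told apart in pools of 50 cells, nor can fewer cells of a type and less RNA per cell.

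Arrays of the same sort number were also compared with each other. For the 42 higher rows the median difference was 2.34 log2 units within sort 1 and 2.32 within sort 2, and for the 80 lower rows it was -2.42 in each. For 7 of the 42 and 11 of the 80 rows, the differences within the sorts were more than 1 log2 unit apart, Acta2 and Cited4 included. These are 16.7% and 13.8%, against 2246 of all 22400 rows (10.03%). The arrays that made the calls are the same, so this describes the calls and does not test them. Over all 22400 rows, which share the 4 arrays and are not independent, the difference in sort 1 correlated with that in sort 2 at Pearson r = 0.293. With the sort numbers crossed it was 0.199.

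**Figure D3:**
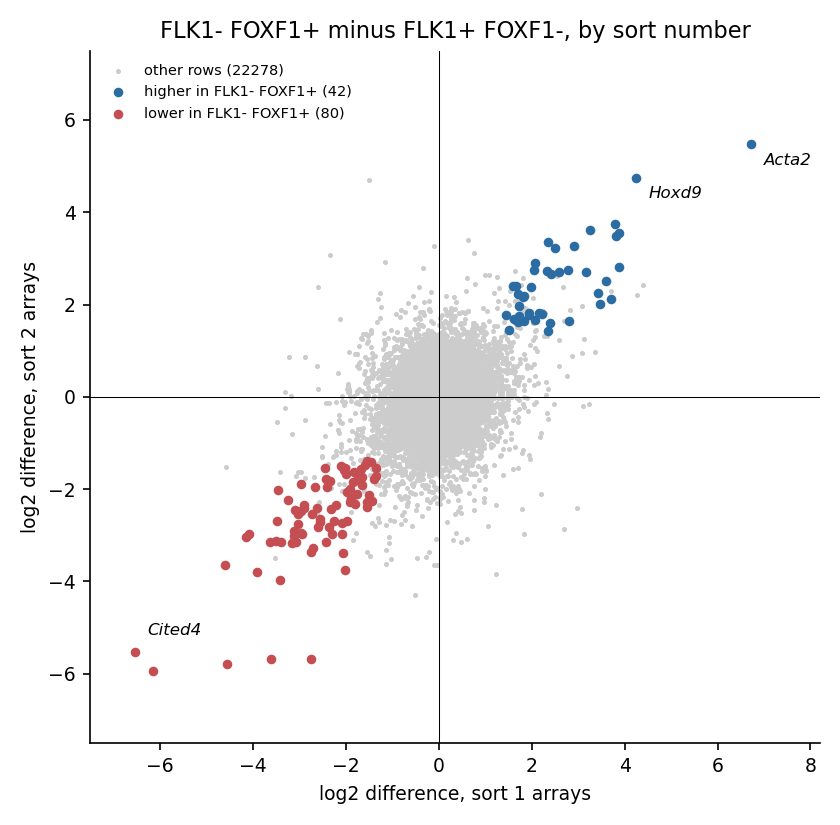
Log2 difference of each gene row, FOXF1 single-positive (FLK1- FOXF1+) minus FLK1 single-positive (FLK1+ FOXF1-), between the sort 1 arrays (horizontal axis) and between the sort 2 arrays (vertical axis). Blue points are the 42 rows higher and red points the 80 rows lower in FOXF1 single-positive cells at an adjusted p under 0.05, and grey points the other 22278 rows. Acta2 lies farthest out on the upper right at 6.73 and 5.48, and Cited4 is among the outermost points on the lower left at -6.54 and -5.53.

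The exon-level table allowed a look inside the named gene rows. Every gene value ended at the fifth decimal (78.3%) or with a 5 at the sixth (21.7%), as values of single probe sets and means of 2 of them do. For Cited4, the mean of probe sets 4858475 and 5418779 equalled the gene row on 6 of 6 arrays. For Hoxd9, the mean of 2 out of 3 probe sets, with 4630500 in each pair, equalled it on 6 of 6 arrays. The partner of 4630500 was 4626330 on both FLK1 single-positive arrays and on FOXF1 single-positive sort 1. On the other arrays it was 4526302, so the Hoxd9 row does not hold the same pair throughout. For Acta2, 2 pairs out of 3 probe sets equalled it on 4 of 6 arrays, the double-positive and FOXF1 single-positive ones, and the probe sets behind its FLK1 single-positive values were not recovered. The matches rest on equal values, since no annotation of the probe sets was used. Further probe sets may therefore belong to these genes. In FLK1 single-positive sort 1 the Acta2 row, at 4.72, was above its 3 recovered probe sets, at 3.86 to 4.43.

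The probe sets were recovered through gene rows that had passed, and those of Acta2 only through arrays with a higher signal, so their values describe the rows and give no independent support. The 3 recovered Acta2 probe sets differed between the populations by 5.38 to 6.09 log2 units. The 3 recovered Hoxd9 probe sets differed by 4.28 to 5.48. Tested among all 128950 exon-level probe sets, of which 0.345% passed, these 6 had adjusted p-values of 0.0111 to 0.0374 by limma. Cited4 probe set 4858475 read 9.29 and 10.02 in FLK1 single-positive and 4.31 and 3.79 in FOXF1 single-positive cells, and its difference was -5.61 ± 0.36 (SE, adjusted p = 0.00889). Probe set 5418779 read 13.02 and 13.12 against 4.93 and 8.29, a difference of -6.46 ± 1.26 that did not pass (adjusted p = 0.185). Of the 2 recovered Cited4 probe sets, 5418779 thus had the wider spread between the FOXF1 single-positive sorts.

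**Figure D4:**
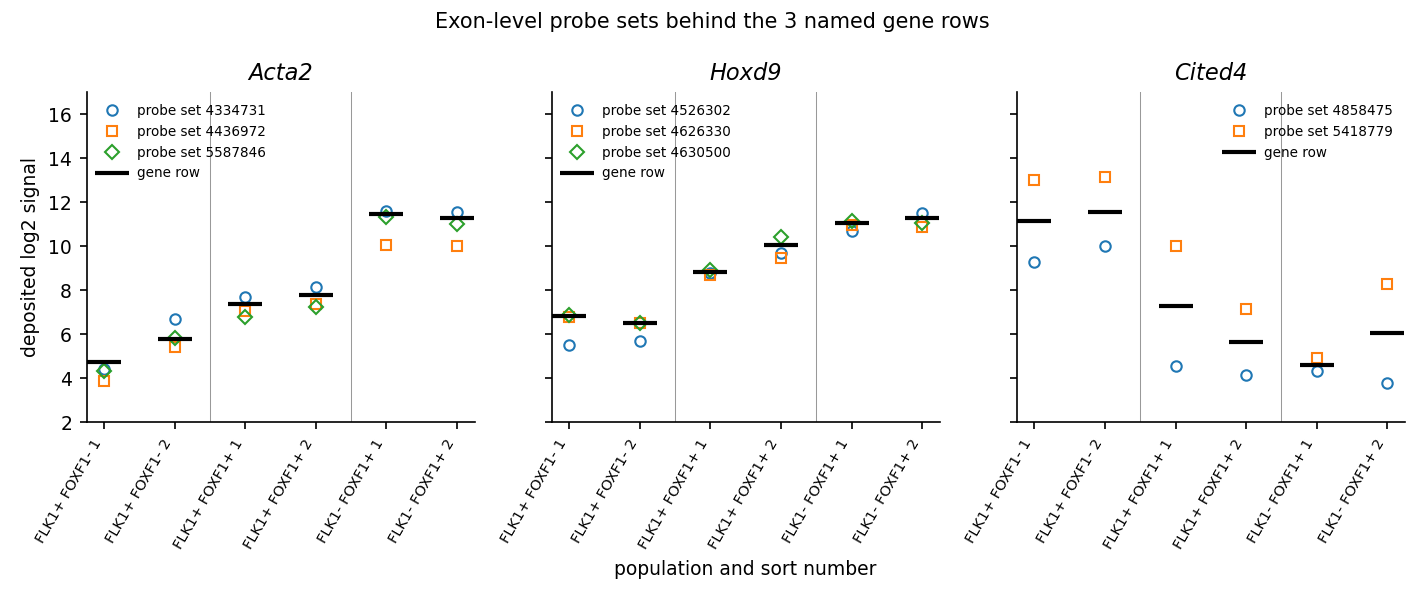
Deposited log2 signal (vertical axis) of the exon-level probe sets recovered behind the rows of Acta2, Hoxd9 and Cited4 (open symbols) and of the gene row (black bars), by population and sort number. The Acta2 probe sets were matched only on the FLK1+ FOXF1+ and FLK1- FOXF1+ arrays. Cited4 probe set 5418779 reads 4.93 and 8.29 in the FLK1- FOXF1+ sorts.

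Some rows that passed had the values of a single probe set. Whether further probe sets belong to these rows is not known. A row equal to 1 probe set on all 6 arrays made up 3 of the 42 higher rows (7.14%) and 15 of the 80 lower rows (18.8%), against 6439 of all 22400 rows (28.7%). Among the lower rows these included ENSMUSG00000041378 and ENSMUSG00000093467. The higher rows had a median log2 signal of 8.37 in FOXF1 single-positive and 5.94 in FLK1 single-positive cells, and the lower rows 5.40 and 8.13. No detection calls were used here, so whether a signal near the lower end of the scale is background is not known.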

How the data were processed

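RNA from sorted cells was hybridised to Affymetrix mouse exon arrays. The authors deposited log2 signals per gene and per exon-level probe set, made with Affymetrix Power Tools and RMA per the submitters' processing notes, which give no versions. That the scale is log2 follows from the range of the values, and the genome build and the grouping of probe sets are not given in the sources used here. RMA tends to compress large differences, and precision is limited by the few arrays: the standard error of a difference had a median of 0.251 log2 units.

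The values were used as deposited. Each row was fitted with limma 3.58.1 (lmFit, eBayes) in R 4.3.3 over all 6 gene-level arrays, with population as the factor (3 residual and 4.27 prior degrees of freedom). Tests were two-sided with Benjamini-Hochberg adjustment over 22400 rows, and every adjusted p is from limma. Probe sets were matched to gene rows through pairs whose mean equalled the row on at least 2 arrays. Figures used matplotlib 3.10.9.

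Rows, lists and tests were chosen with earlier results of these data known. The rule for named genes took the largest differences per direction among non-overlapping rows past the threshold. As 0 of the IDs matched the 49997 genes of the reference table, it was limited to the 3 rows with a supplied name and 2 further IDs per direction, and 33 gene lists were not tested. Alternatives were another normalization, a filter on dim rows, another prior, fewer arrays and the sort number as a block. The sorts were not treated as paired, since the labels do not say that a sort number marks a shared litter, batch or day. The differences between sorts correlated across rows at 0.0975, 0.0591 and 0.137 between pairs of populations. These correlations do not settle whether the sorts were paired.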

Additional observations from a re-analysis of the deposited data

How the results depend on the processing

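The counts of 42 higher and 80 lower rows stayed within 1.5 times after quantile normalization again (48 and 80), with equal array medians (49 and 81), without the dimmer 50% of rows (38 and 72) and with an intensity trend and robust prior (51 and 83). Lower rows were 61.9% to 65.6% of the calls under these settings and in the reported fit. When the sort number entered as a replicate block they were 40 and 67, of which 32 and 63 were among the reported rows, and 1884 rows against 1631 had an unadjusted p under 0.05. Without rows equal to a single probe set, an alternative chosen after seeing the data, they were 49 and 75. Fitting only the 4 arrays compared gave 23 and 46, and leaving out either double-positive array gave the same counts, since both leave 2 arrays in each single-positive population and fewer residual degrees of freedom. Without 1 array each time, 6 to 23 rows were higher and 20 to 46 lower, where a lone array was assumed to vary like the others. The lowest counts were those without FLK1 single-positive sort 2. Over these 6 fits the difference ranged from 5.57 to 6.65 log2 units for Acta2 (adjusted p 0.00509 to 0.0313), from 4.34 to 4.64 for Hoxd9 (0.0142 to 0.0589) and from -6.74 to -5.32 for Cited4 (0.0152 to 0.0886). Averaging probe sets per gene was not run, since no table pairs them with genes.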
